A study of Homo sapiens with 34 samples.

Results

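The regions described here were 9222 stretches of acetylated chromatin that lay away from protein-coding genes and also carried RNA polymerase II (Pol II) in uninduced DLD1 cells. They were chosen from 78005 regions of histone H3 lysine 27 acetylation (H3K27ac) on chromosomes 1 to 22 and X, of which they made up 11.8%. A region was kept when it was under 6000 bp wide, overlapped an H3K27ac region of the induced list, overlapped neither a RefSeq protein-coding gene nor the 1 kb beside its ends, and overlapped an uninduced Pol II region. Of the 78005 regions, 75502 were under the width limit, 64166 of these were shared with the induced list, 25720 of these lay away from genes, and 9222 had Pol II. The 9222 are called the members below, and the 16498 that met every step but the last are the intergenic regions without Pol II.

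The study examined colorectal cancer lines in which Wnt signalling can be silenced, and only its ChIP-seq arm bears on the members. DLD1 is a colorectal adenocarcinoma line. All cells compared, uninduced ones included, carried a Tet-inducible transgene for dominant negative TCF7L2, a form of the transcription factor at the end of the Wnt pathway that blocks its target genes. Uninduced cells received no treatment, and induced cells received 1 µg/mL doxycycline for 24 h, so that doxycycline itself and the transgene cannot be told apart. For H3K27ac and for Pol II there were 2 samples in each condition and 1 input each, read to 40 to 55M single-end reads of 75 bases according to the labels. The deposited peak files hold 1 list for each antibody and condition, so no value below has a replicate spread, and no test was made between conditions. The line kept colonic epithelial marks, since 11 of 11 epithelial marker genes (EPCAM, CDX2 and VIL1 among them) carried both H3K27ac and Pol II. Of the markers of other cells, 3 of 4 immune, 5 of 7 stromal and endothelial and 0 of 7 other organ genes overlapped Pol II. H3K27ac overlapped 3 of 4, 5 of 7 and 2 of 7 of the same groups. The median uninduced Pol II fold over the epithelial markers was 30.5, against 9.34 over the immune and 4.26 over the stromal and endothelial ones.

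H3K27ac is placed by the acetyltransferases p300 and CBP and marks active promoters and active enhancers. At active enhancers Pol II is recruited as well and transcribes short, unstable enhancer RNAs, so acetylation with Pol II away from genes is the usual picture of an active distal element. The same picture arises at genes that code for no protein: Pol II itself transcribes the spliceosomal U1, U2, U4 and U5 RNAs, most microRNA precursors and long non-coding RNAs (lncRNAs), while Pol III transcribes tRNAs and U6.

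Sequences are shown first for the members that overlapped microRNA genes and lncRNA starts, because there the transcript, if one is made, is known. The members overlapped 29 microRNA genes in 25 members, and RefSeq held mature sequences for 27 of these genes, 41 sequences in all. The mature RNAs below were picked from the 41 by no set rule. They are written 5′ to 3′ with the seed, bases 2 to 8, in capitals. The seed is the stretch that pairs with target messages. The first pair shares the seed AACAGUC, the second pair shares AGUGCAA, and the other 3 each have a seed of their own.
hsa-miR-132-3p: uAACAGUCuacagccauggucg
hsa-miR-212-3p: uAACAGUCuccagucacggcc
hsa-miR-301b-3p: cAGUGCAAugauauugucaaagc
hsa-miR-130b-3p: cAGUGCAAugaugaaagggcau
hsa-let-7i-5p: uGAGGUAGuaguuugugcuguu
hsa-miR-148a-3p: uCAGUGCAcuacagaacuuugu
hsa-miR-210-3p: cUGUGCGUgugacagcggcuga

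MIR132 and MIR212 lay together in the member at chr17:2049260-2051125, where Pol II was 9.65-fold enriched uninduced and 10.2-fold induced. MIR301B and MIR130B lay together at chr22:21650854-21653386, with Pol II at 14.6-fold and 23.3-fold. Among the sequences shown, each shared seed therefore came from neighbours in a single member, and both members had Pol II in either condition. Elsewhere a seed was shared between separate members, as UUCCAGA was by the copies of MIR3180 on chromosome 16. MIRLET7I, of the let-7 family, lay in chr12:62601549-62604363 with Pol II at 32.6-fold and 27.9-fold. MIR148A lay at the edge of chr7:25949979-25951323, where the strongest Pol II summit inside was 27.01-fold enriched uninduced and 22.03-fold induced, and the summits of the whole Pol II regions, outside the member, were 44.2-fold and 27.9-fold. MIR210, the microRNA known for its induction by low oxygen, lay in chr11:567000-569828 with Pol II at 28.1-fold and 24.2-fold.

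Long non-coding RNA starts gave the other sequences. RefSeq promoter windows, which run from 250 bases before to 50 bases after a start, fell on members at 698 lncRNA starts on GRCh38.p14. Capitals mark every match, on either strand, to the 9 motifs searched: CTTTGAT and CTTTGTT for TCF/LEF factors, TGANTCA for AP-1, TGTTTAC for FOXA, CCGGAA for ETS, TTTATGG for CDX, CACGTG for the E box, GGGCGG for the GC box and TATAAA for the TATA box. MIR17HG, the host of the miR-17 to miR-92 cluster, and NORAD are shown as starts with strong Pol II, and LOC105375170, whose nearest protein-coding gene is AGR3, as a start with the TCF/LEF letters; the 3 were chosen after their values were seen.
MIR17HG, plus strand, chr13:91347437-91347736: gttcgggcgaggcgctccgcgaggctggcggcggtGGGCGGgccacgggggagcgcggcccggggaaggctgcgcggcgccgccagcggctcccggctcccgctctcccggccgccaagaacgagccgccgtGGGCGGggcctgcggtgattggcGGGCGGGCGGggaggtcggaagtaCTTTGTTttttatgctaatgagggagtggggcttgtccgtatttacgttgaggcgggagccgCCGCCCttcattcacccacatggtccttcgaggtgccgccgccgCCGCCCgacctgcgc
NORAD, minus strand, chr20:36050911-36051210: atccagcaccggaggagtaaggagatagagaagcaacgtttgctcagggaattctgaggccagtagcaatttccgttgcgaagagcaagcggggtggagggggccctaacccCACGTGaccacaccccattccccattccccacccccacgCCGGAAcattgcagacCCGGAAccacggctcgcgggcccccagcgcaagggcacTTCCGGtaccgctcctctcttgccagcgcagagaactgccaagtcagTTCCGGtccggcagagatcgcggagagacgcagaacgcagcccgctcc
LOC105375170, plus strand, chr7:16989968-16990267: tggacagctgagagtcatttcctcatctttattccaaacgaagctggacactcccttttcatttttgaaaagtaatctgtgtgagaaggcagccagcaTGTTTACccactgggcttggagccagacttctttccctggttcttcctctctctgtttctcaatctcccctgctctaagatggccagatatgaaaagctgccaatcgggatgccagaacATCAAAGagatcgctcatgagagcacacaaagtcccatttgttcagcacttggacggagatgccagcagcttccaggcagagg

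The MIR17HG window held 6 GC boxes and 1 CTTTGTT, and its member had H3K27ac at 34.5-fold and 40.1-fold and Pol II at 38.8-fold and 36.3-fold (uninduced, then induced, as in every pair below). The NORAD window held 4 ETS matches and 1 E box, with H3K27ac at 29.2-fold and 36.6-fold and Pol II at 32.5-fold and 27.2-fold. The LOC105375170 window held 1 CTTTGAT and 1 TGTTTAC, and its Pol II was 6.17-fold and 4.07-fold enriched. All 3 starts were in the Pol II list of either condition, and their motif content differed.

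Over the 698 windows, which include none on chromosome 8, the median GC content was 58.8%, with a median of 14 CpG, against 50% and 5 over all 12829 lncRNA windows and 62.3% and 21 over 22132 protein-coding windows. CTTTGAT was present in 1.86% of the windows on members, 3.73% of all lncRNA windows, 1.99% of protein-coding windows and 2.63% of all 34961 windows. The GC box was present in 45.0% of windows on members, 25.6% of all lncRNA windows, 56.3% of protein-coding windows and 45.0% of all windows. TATAAA was in 8.60%, 15.1%, 9.46% and 11.5% of the same 4 sets, and CCGGAA in 18.1%, 10.5%, 21.2% and 17.3%. In GC content and in these motifs the lncRNA starts on members stood nearer to protein-coding starts than to lncRNA starts as a whole. AP-1 and FOXA letters were exceptions: TGANTCA was in 11.6% on members, 10.3% over lncRNA, 6.15% over protein-coding and 7.68% over all windows, and TGTTTAC in 5.16%, 4.41%, 2.85% and 3.42%. CTTTGTT was in 4.01%, 6.73%, 4.30% and 5.19%, CACGTG in 8.31%, 5.41%, 8.34% and 7.27%, and TTTATGG in 2.01%, 3.45%, 2.02% and 2.54%. Of all 12829 lncRNA windows, 9124 lay in no uninduced H3K27ac region. Those had a median GC content of 46.3%, with the GC box in 13.9% and CCGGAA in 6.01%. LncRNA windows on H3K27ac regions other than members were not set apart. The nearness to protein-coding starts therefore cannot be called particular to the members. All of these are counts of letters in short windows whose base composition differs between the sets, and no factor's binding was measured.

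The members were wider and more strongly acetylated than the intergenic regions without Pol II, but not than other regions with Pol II. Their median width was 1921 bp (quartiles 1130 and 3006) and their median uninduced H3K27ac fold enrichment, taken at the strongest summit of each region as the authors' peak caller gave it, was 12.6 (7.08 to 18.5). The intergenic regions without Pol II had a median width of 826 bp and a median fold of 4.74. Shared regions inside genes with Pol II had medians of 2137 bp and 14.0-fold. All uninduced H3K27ac regions with Pol II, of any width, had medians of 2209 bp and 16.7-fold. Since the rule used these lists, these comparisons are a description. Among all 25720 shared intergenic regions, ordered by H3K27ac −log10 q into 10 equal groups, the share with Pol II was 9.80% in the weakest group and 91.6% in the strongest, and it was higher in each group than in the one before.

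**Figure D1:**
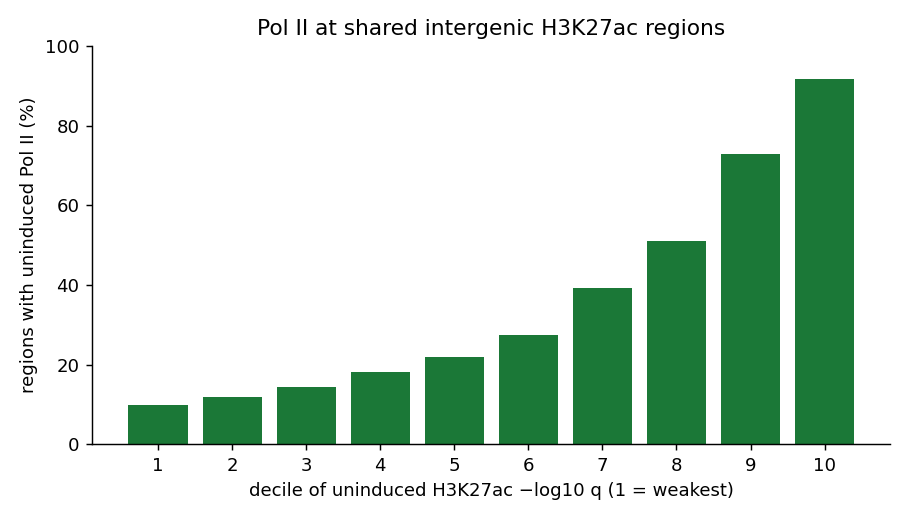
Share (%) of the 25720 shared intergenic H3K27ac regions that overlapped an uninduced Pol II region, in 10 equal groups by uninduced H3K27ac −log10 q, with group 1 the weakest. The bars climb from 9.80% to 91.6%, with 51.1% in group 8.

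Pol II at the members was weaker than at genes' ends and lay beside the acetylation summit. Gene ends here are either end of a protein-coding gene with 1 kb on each side, so they include the promoters at gene starts. Its median uninduced fold was 5.39 (quartiles 3.71 and 9.93), against 5.44 at the 7222 shared regions inside genes with Pol II and 24.4 at the 11293 shared regions at gene ends with Pol II. The fold of a member is that of the strongest summit of its Pol II region, which can lie outside the member. A Pol II summit lay inside 8873 members (96.2%), and the others were touched only by the flank of a Pol II region. The Pol II summit was a median 218 bp from the H3K27ac summit (quartiles 129 and 379), and 31.0% lay within 150 bp. The same distance was 230 bp inside genes and 234 bp at gene ends. Between the lists, the Pol II summit of a member moved by a median of 38 bp over the 6719 members with one in both, and 77.2% moved by at most 100 bp.

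The rule's limits were narrow in places. The widest member measured 5996 bp and the narrowest region left out for width 6001 bp. The nearest member to a gene was 1001 bp away. The smallest overlap with Pol II was 2 bp and the smallest with an induced H3K27ac region 6 bp. More than 1 Pol II region was overlapped by 875 members. Counting only the overlapping Pol II region with the highest −log10 q, the 9222 members fell on 8951 Pol II regions. By that count 518 members (5.62%) shared their Pol II region with another, up to 6 members on 1 region.

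The induced Pol II list was the only list the choice of members did not use. Of the 9222 members, 7052 (76.5%, Wilson 95% interval 75.6 to 77.3%, for counting error only) overlapped an induced Pol II region and 2170 (23.5%) did not. Over all 31027 uninduced H3K27ac regions with Pol II, the share without an induced Pol II region was 15.4%. The share with one was 75.4% (74.4 to 76.3%) at regions inside genes and 97.4% (97.1 to 97.7%) at gene ends. The members thus stood beside the regions inside genes and apart from the gene ends. Requiring Pol II in the uninduced list favours that list: read the other way, 7052 of the 7449 shared intergenic regions with induced Pol II (94.7%, 94.1 to 95.2%) had it uninduced. Of the 16498 regions without uninduced Pol II, 397 (2.41%) gained an induced Pol II region. The induced Pol II list was also the smaller one, with 50665 regions over 56.7 Mb against 57247 over 70.9 Mb, and its part in these shares was not tested. With only the 40000 strongest regions of each list, the members' share was 81.4% and the reverse share 94.2%.

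The share of members with induced Pol II went up with the strength of their uninduced Pol II. Among 517 members whose Pol II had a −log10 q under 3, 25.5% overlapped an induced Pol II region. The share was 35.9% from 3 to 5, 58.2% from 5 to 10, 85.2% from 10 to 20, 98.2% from 20 to 50, and 99.6% (2171 of 2179) at 50 or more. Regions inside genes gave 24.5%, 33.2%, 58.2%, 85.8%, 98.5% and 99.3% in the same steps, with overlapping intervals in each. Gene ends gave 33.3%, 42.1%, 66.3%, 89.0%, 97.9% and 99.9%, and 9737 of the 11293 gene ends were in the strongest step. The 2170 members without induced Pol II had a median uninduced Pol II fold of 3.37, and the 7052 others 6.82. Of the 2170, 1856 (85.5%) had an uninduced Pol II −log10 q under 10.

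**Figure D2:**
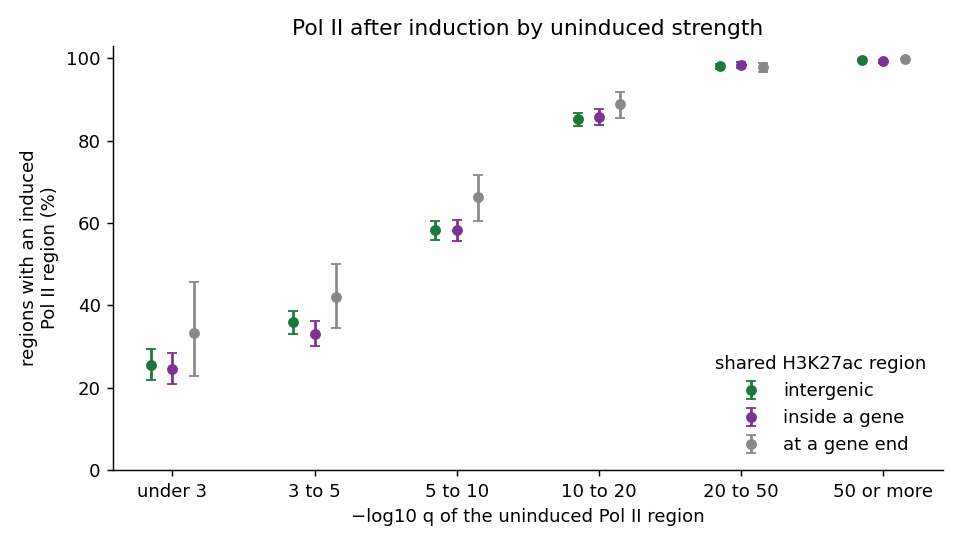
Share (%) of shared H3K27ac regions with uninduced Pol II that overlapped an induced Pol II region, by the −log10 q of the uninduced Pol II region, for the members (intergenic), regions inside a gene and regions at a gene end; bars are Wilson 95% intervals. The members go from 25.5% in the weakest step to 99.6% in the strongest, level with the regions inside a gene. A gene end is either end of a protein-coding gene, its start included.

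Pol II regions covered less of the members in the induced list. In uninduced cells they covered a median 41.3% of a member's width (quartiles 24.5 and 67.5) and in induced cells 29.1% (7.90 and 57.3). Summed over the members' 20.1 Mb, coverage was 7.94 Mb (39.5%) and 5.86 Mb (29.2%). Coverage was lower in 7404 members (80.3%), higher in 1465 and equal in 353, against 76.6% lower over all H3K27ac regions with Pol II. With 1 kb windows at Pol II summits in place of the regions, the induced median was 48.0%. Uninduced coverage was not measured with these windows, so that value gives no direction. With the regions themselves, the median went from 40.0% to 27.6% inside genes and from 68.7% to 63.1% at gene ends. The share with lower coverage at the members was near that over all regions with Pol II.

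**Figure D3:**
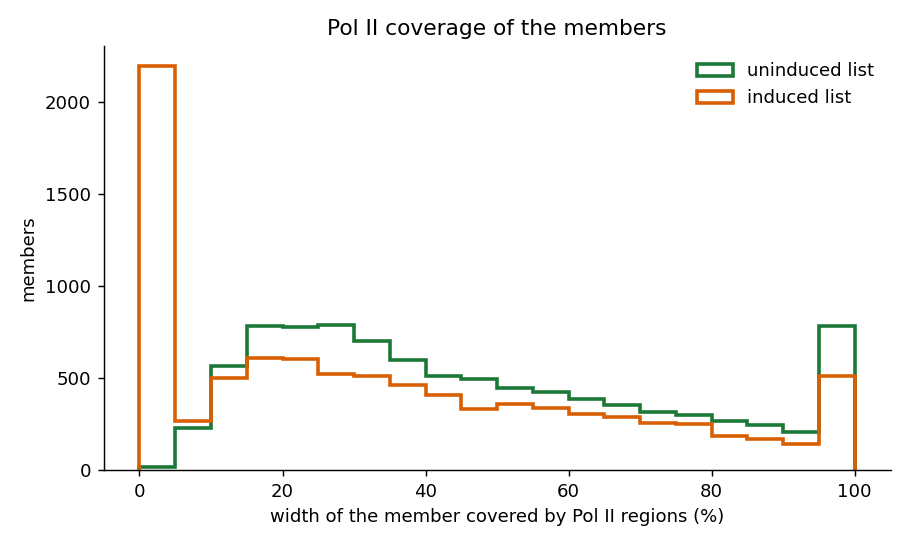
Number of members by the share of their width (%) covered by Pol II regions, in steps of 5 points, in the uninduced list and in the induced list. The induced list has a tall first step because 2170 members had no induced Pol II region, and the medians are 41.3% and 29.1%.

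Genes for small RNAs made up few members but the strongest Pol II. The spliceosomal and other snRNA genes were overlapped by 41 members, with a median Pol II fold of 49.4 (quartiles 37.9 and 62.2), and all 41 had an induced Pol II region. Their median uninduced Pol II −log10 q was 495. Of all 15284 uninduced H3K27ac regions with Pol II at a −log10 q of 50 or more, 99.6% had an induced Pol II region. Among the 25 members with the highest Pol II −log10 q, 16 overlapped an snRNA gene or snRNA pseudogene, and among the top 100, 38 did. Small nucleolar RNA genes were overlapped by 17 members (median fold 28.2, 17 with induced Pol II). Several of these were neighbouring SNORD3 copies that shared a Pol II region, so the same fold entered the median more than once. At the U5 genes, whose RNA acts in the spliceosome, Pol II was 38.6-fold and 41.7-fold (RNU5A-1), 48.9-fold and 37.6-fold (RNU5B-1), 63.5-fold and 56.3-fold (RNU5D-1) and 54.996-fold and 64.6-fold (RNU5E-1). At the U1 genes, whose RNA recognises the start of introns, it was 36.3-fold and 39.4-fold (RNU1-1), 35.1-fold and 31.8-fold (RNU1-2), 38.4-fold and 59.4-fold (RNU1-3) and 37.8-fold and 43.9-fold (RNU1-4). Some of these genes had the higher fold uninduced and some induced, and all were strong in both lists. The highest of all, chr14:34545739-34549364 near EAPP, overlapped LOC105370449 and the pseudogene RNU1-27P, with 68.5-fold and 67.8-fold. Small RNA genes and their pseudogenes are near-identical copies, so reads could be split or shared between them and the fold at any single copy is uncertain.

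Pol III genes were present too. The tRNA genes were overlapped by 89 members with a median Pol II fold of 11.2 (quartiles 7.49 and 17.2), and 87 (97.8%) had induced Pol II. The 2 without it, at TRG-CCC1-2 and TRV-CAC5-1, had uninduced folds of 2.97 and 3.10. The median uninduced Pol II −log10 q over the 89 was 67.5, in the step where 99.6% of all regions had induced Pol II. RNU6-8 and RNU6-1, both U6 genes, had Pol II at 18.1-fold and 11-fold, and at 34.5-fold and 24.4-fold. The RNU6-1 member also held the start window of the lncRNA SKOR1-AS1.

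MicroRNA genes and lncRNA starts also had a higher median Pol II fold than members on no gene. The 25 members on microRNA genes had a median Pol II fold of 27.8, and 22 (88.0%, 70.0 to 95.8%) had induced Pol II. A member can count in several of these classes. Those at MIR5087 (66.4-fold uninduced) and MIR6077 (47.7-fold) also lay on the snRNA pseudogenes RNVU1-21 and RNVU1-2. The member at the LINC01719 start also lay on the snRNA gene RNVU1-6. The folds at such members cannot be assigned to 1 gene. The 3 without it were those at MIR205 (uninduced fold 2.60), MIR6074 (5.02) and MIR4708 (2.73). The 3 copies of MIR3180, on chromosome 16, had Pol II at 43.8-fold and 32.3-fold, 29.95-fold and 28.5-fold, and 31.0-fold and 29.8-fold. MIR371A, MIR371B and MIR372, known from embryonic stem cells, shared chr19:53782915-53788465, with H3K27ac at 36.2-fold and 21.9-fold and Pol II at 6.86-fold and 8.32-fold. The 602 members on a lncRNA start had a median Pol II fold of 12.6 and 90.2% had induced Pol II. The 2140 that overlapped a lncRNA away from its start had 5.15 and 75.1%. No start windows on chromosome 8 were included, so any lncRNA starts there were counted among the 2140. Pseudogenes were overlapped by 592 members (8.31, 85.6%).

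Most members overlapped no annotated gene at all. There were 5887 such members (63.8%), with a median Pol II fold of 5.11 (quartiles 3.62 and 8.67), and 4390 of them (74.6%, 73.4 to 75.7%) had induced Pol II. The other 3335 (36.2%) overlapped a non-coding gene or a lncRNA start window, and 79.8% had induced Pol II. Of all shared intergenic regions, 97.6% of those on snRNA genes, 87.3% of those on tRNA genes, 70.5% of those on lncRNA starts and 34.1% of those on no gene had uninduced Pol II. The lncRNA starts here again leave out chromosome 8. The next members were on no RefSeq gene and at least 10 kb from a protein-coding gene. They were picked from the strongest of these after their values were seen. Others among the strongest, such as the one near CHD7 (48.0-fold and 44.7-fold), are left out. At chr17:43314340-43317108 Pol II was 61.3-fold and 42.9-fold, and at chr6:28104189-28105707 48.6-fold and 29.1-fold. The chromosome 17 region is not isolated from snRNA genes. It lies between the group with snRNA genes at chr17:43237988-43302003 and a further member on an snRNA gene at chr17:43366612-43370984. At chr7:129778626-129781293, 21.6 kb from NRF1, a regulator of mitochondrial genes, it was 41.6-fold and 43.9-fold.

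**Figure D4:**
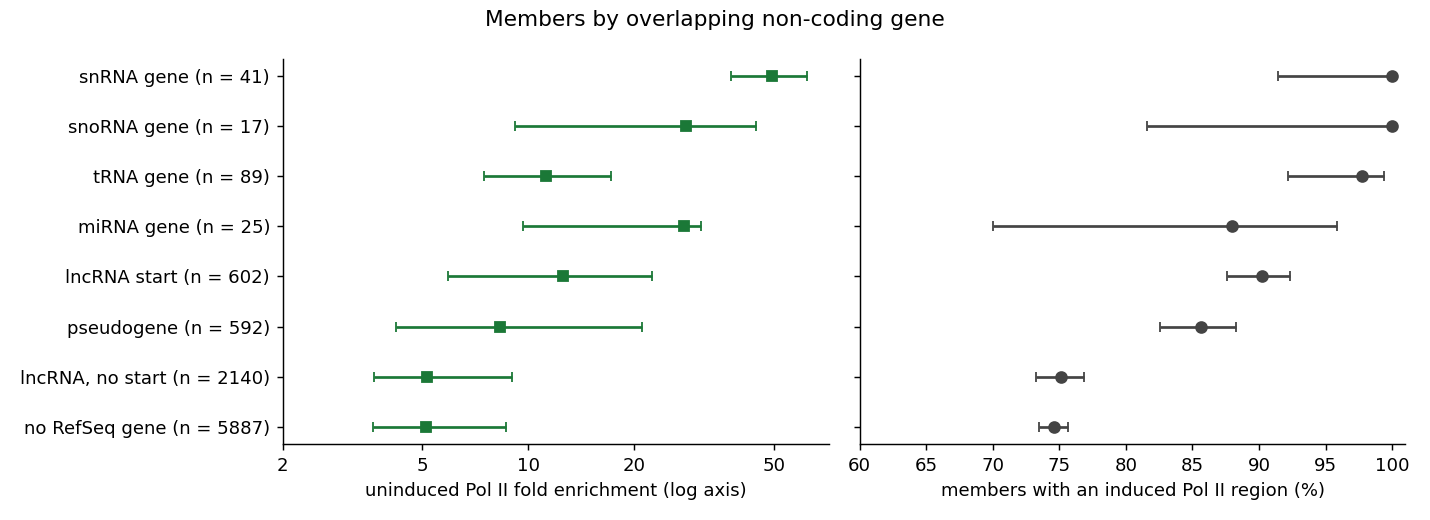
Left, uninduced Pol II fold enrichment of the members by the non-coding gene they overlapped (median and quartiles, log axis); right, share (%) with an induced Pol II region with Wilson 95% intervals (axis from 60%). Members on snRNA genes are at 49.4-fold and 100%, and those on no RefSeq gene at 5.11-fold and 74.6%. The shares are not matched for Pol II strength, and lncRNA starts on chromosome 8 are not told apart. A member can count in several of the classes.

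The strongest acetylation was at other members. At chr1:181101077-181106290, 8.18 kb from the immediate early gene IER5, H3K27ac was 40.0-fold and 34.0-fold and Pol II 20.5-fold and 24.2-fold. At chr15:92882654-92885167, the start of the lncRNA CHASERR beside the chromatin remodeller CHD2, H3K27ac was 37.7-fold and 39.8-fold and Pol II 37.2-fold and 33.7-fold. At chr9:94165182-94168153, on the let-7 host MIRLET7A1HG, H3K27ac was 38.8-fold and 27.1-fold and Pol II 30.4-fold and 21.6-fold. These 3, and the 3 others of the 6 with the highest H3K27ac −log10 q, had Pol II in both lists.

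Some members with clear uninduced Pol II had none in the induced list. The 8 with the highest Pol II −log10 q among these were mostly edge cases, since only 3 had a Pol II summit inside. The region near ARMH1, for example, at chr1:44728815-44729333, had 9.44% of its width covered by a Pol II region whose 63.5-fold summit lay outside. Members with a summit inside were therefore also looked up, after their values were seen. At chr2:204406223-204409084, 136 kb from the polarity gene PARD3B, Pol II was 9.55-fold uninduced and absent from the induced list, with H3K27ac at 15.8-fold and 12.4-fold. At chr20:62523245-62524054, 47.2 kb from GATA5, a factor of gut development, Pol II was 8.54-fold uninduced with H3K27ac at 4.13-fold and 5.75-fold. At chr2:237295636-237301274, 22.7 kb from the collagen gene COL6A3, Pol II was 6.27-fold and H3K27ac 31.2-fold and 17.6-fold. At chr9:135287586-135290675 near OLFM1, chr6:14620316-14624485 near CD83 and chr17:7140864-7143666 near ASGR2, Pol II was 6.60-fold, 7.01-fold and 7.03-fold. H3K27ac at those 3 was 23.4-fold and 10.4-fold, 24.4-fold and 11.9-fold, and 23.1-fold and 12.9-fold. The others looked up lay near VEGFA, PPM1H, HNRNPD and PFKFB3. Their H3K27ac was 14.8-fold and 14.1-fold, 7.90-fold and 7.69-fold, 7.46-fold and 5.21-fold, and 9.42-fold and 6.12-fold. All of these regions kept an H3K27ac region by the rule, and differences between the folds of the lists were not tested.

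Members near Wnt target genes did not all behave alike. Within 50 kb of 17 of 30 Wnt and TCF target genes (56.7%) there was at least 1 member, against 37.8% of all 19821 protein-coding genes. These genes had 32 gene and member pairs, of which 23 (71.9%) had induced Pol II, against 10418 of 12774 pairs (81.6%) over all genes. The pair share was lower for goblet and secretory genes (61.9%) and for markers of other tissues (60%). At least 1 member without induced Pol II lay near 7 of the 30 (EPHB2, SP5, LEF1, NKD1, SOX9, APCDD1 and ZNRF3), or 23.3%, against 10.5% of all genes. Other lists had as high a share: 31.8% of junction and epithelial genes, 25% of goblet and secretory genes and 24% of both colonocyte and AP-1 genes. Counts this small carry wide counting error.

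AXIN2, a scaffold of the β-catenin destruction complex and a standard Wnt target, had 3 members within 100 kb, all with induced Pol II. The nearest, chr17:65521751-65525993 at 2.57 kb, had H3K27ac at 24.4-fold and 13.8-fold, and Pol II covered 100% and 72.8% of its width. The Pol II region there had its 37.4-fold summit outside the member, and the strongest summit inside was 7.35-fold uninduced and 17.9-fold induced. The second, 10.8 kb away, had Pol II at 5.10-fold and 5.55-fold with coverage of 75.6% and 18.1%, and the third, 31.5 kb away, had 9.53-fold and 6.09-fold with 37.7% and 22%. Pol II coverage was lower in the induced list at each of the 3, as in 80.3% of all members.

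NKD2, a feedback inhibitor of the pathway, had 3 members within 50 kb, all with induced Pol II. The strongest, chr5:1001946-1006267, had Pol II at 23.2-fold and 22.1-fold. NKD1, its relative, had 2 members within 50 kb and neither had induced Pol II. SP5, a transcription factor target, had 5 members, 3 with induced Pol II. At chr2:170743382-170744992 and chr2:170747479-170748100 the uninduced Pol II was 3.51-fold and 4.92-fold and none was listed after induction. ASCL2, a factor of intestinal stem cells, had 2 within 100 kb, both nearer to TH, with Pol II at 2.58-fold and 3.17-fold and none induced. LGR5, a stem cell receptor, had no member within 100 kb.

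MYC had 2 members within 100 kb, both with induced Pol II. The one on PVT1, chr8:127793943-127795823, had Pol II at 24.8-fold and 15-fold over 70.4% and 40.7% of its width. The other had 3.43-fold and 2.64-fold. TCF7L2, the gene the transgene is derived from, had 1 member 32.6 kb away, with 6.44-fold and 7.89-fold. GUCY2C, the intestinal receptor for guanylin, had 2 members on GUCY2C-AS1 with Pol II at 3.56-fold and 4.25-fold, and at 4.95-fold and 3.26-fold. GUCA2A, which codes for guanylin, had 1 member, nearer to FOXJ3, with 3.74-fold and 4.36-fold. Without replicates none of these single pairs can be called a change.

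The lists of intestinal genes are set against the 37.8% of all genes with a member and the 81.6% of all pairs with induced Pol II. Intestinal lineage transcription factors had a member within 50 kb at 17 of 25 genes, and 30 of their 34 pairs had induced Pol II. HNF4A and KLF4 had 4 members each, all with induced Pol II, while the only member near FOXA2 had none. The member beside SOX4, chr6:21586455-21590295, had H3K27ac at 24.4-fold and 34.1-fold and Pol II at 20.7-fold and 27.5-fold. Colonocyte genes had members at 15 of 25 genes (19 of 25 pairs with induced Pol II), or 60%, the same share as housekeeping genes. Goblet and secretory genes had members at 9 of 20 (45%; 13 of 21 pairs). The member near KRT20, chr17:40900535-40905738, had H3K27ac at 27.2-fold and 44.5-fold and Pol II at 11.4-fold and 11-fold. ZG16, a goblet cell lectin, had 3 members and none had induced Pol II.

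Of the lists, immediate early, inflammatory and epithelial genes had members most often, again against 37.8% of all genes and 81.6% of all pairs. The intergenic regions without Pol II lay near as many genes of 2 of these lists, 15 of 20 inflammatory and 16 of 22 epithelial genes, and near 16 of 25 AP-1 genes. The counts were 19 of 25 AP-1 and immediate early genes (32 of 40 pairs with induced Pol II), 15 of 20 inflammatory and NF-kB genes (30 of 35), 16 of 22 junction and epithelial genes (32 of 42) and 8 of 12 EGFR ligands and receptors (13 of 15). Near ATF3, chr1:212557942-212559591 had H3K27ac at 20.1-fold and 43.4-fold and Pol II at 28.8-fold and 31.5-fold. Near EREG, an EGFR ligand, chr4:74391339-74397113 had Pol II at 17.5-fold and 28.2-fold. IRF1, an interferon response factor, had 7 members within 50 kb, 6 with induced Pol II, and the nearest had 26.8-fold and 34.9-fold. Cell cycle genes had members at 10 of 24 genes (16 of 21) and housekeeping genes at 12 of 20 (24 of 27). CCNE1, which codes for a cyclin of the G1 to S step, had 4 members within 50 kb, 3 with induced Pol II, and the strongest, chr19:29844263-29846366, had 12.8-fold and 10-fold. ACTB, the cytoskeletal actin, had 6, 5 with induced Pol II, and chr7:5555252-5559050 had H3K27ac at 32.1-fold and 35.7-fold and Pol II at 12.8-fold and 15.2-fold. CLDN3 and CLDN4, tight junction claudins side by side in the genome, had 6 members each, 5 and 4 of them with induced Pol II. Markers of other tissues had members at 11 of 28 genes (9 of 15), the share nearest to that of all genes.

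**Figure D5:**
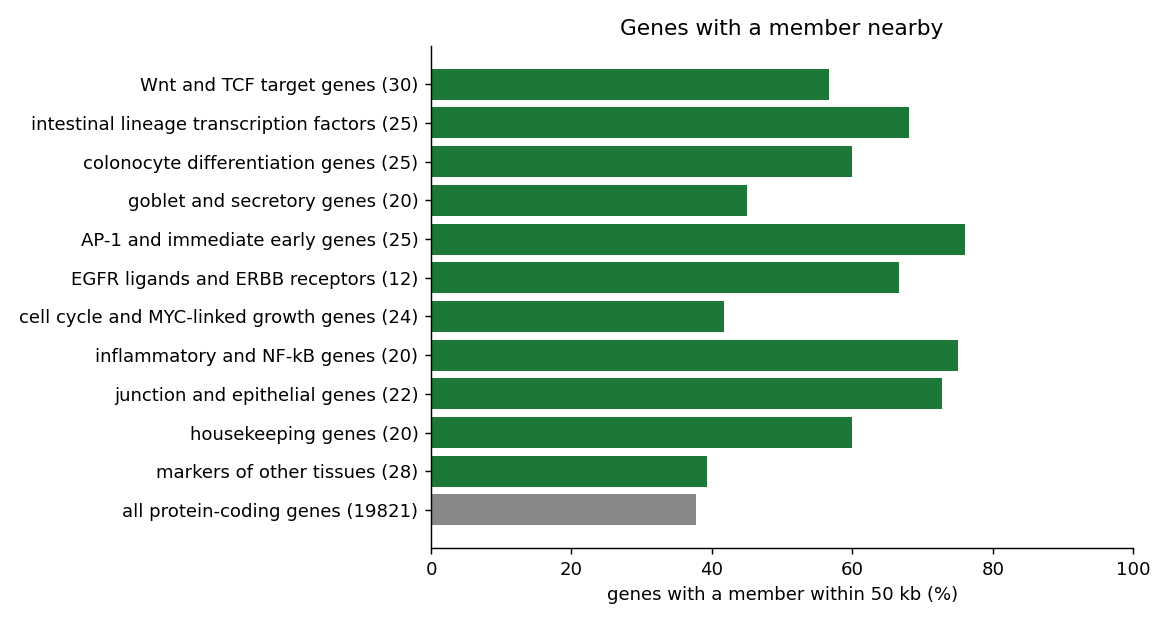
Share (%) of the genes of each list with at least 1 member within 50 kb, with the number of genes in brackets and all protein-coding genes in grey. AP-1 and immediate early genes stand at 76.0%, Wnt and TCF target genes at 56.7% and all genes at 37.8%.

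Members lay at all distances from genes, and some lay in groups. The median distance to the nearest protein-coding gene was 27.9 kb (quartiles 8.69 and 89.1), against 47.2 kb for the intergenic regions without Pol II. From 1 to 5 kb there were 1447 members, of which 82.3% had induced Pol II, and at 500 kb or more there were 296, of which 67.9% did. The median Pol II −log10 q was 21.0 in the first of these bins and 11.3 in the last, so strength moved with distance. By chromosome the share with induced Pol II was between 69.6% (chromosome 8) and 86.9% (chromosome 22).

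When members under 10 kb apart were joined, 3120 (33.8%) fell into groups and 6102 stood alone. The share with induced Pol II was 79.0% in groups and 75.2% alone. The share of members in groups was 24.0% with a limit of 5 kb and 26.1% with the 40000 strongest regions of each list. With 1 kb windows at Pol II summits it was 35.7%. It was not measured for the other classes. Members of a group can also share a Pol II region: near FRMD8 all 6 had the same uninduced Pol II fold, 36.5. The largest group, chr17:43237988-43302003 near CCDC200, held 14 members over 64.0 kb, 10 of them on snRNA genes, with Pol II between 4.37-fold and 67.1-fold and an induced Pol II region at all 14. The next, chr1:161439550-161474033 near FCGR2A, held 12 members, 8 on tRNA genes, with Pol II from 4.84-fold to 14.7-fold and all 12 with induced Pol II. A group of 7 at chr1:221973637-221990939 lay 232 kb from DUSP10, which codes for a MAP kinase phosphatase, and all 7 had induced Pol II. Beside IRF1, 6 members lay within 20.1 kb, all on no RefSeq gene and all with induced Pol II. Near ZC3H11B, 3 of 6 had it, and near USP12 4 of 6.

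Several genes were the nearest gene to many members. DPP10 had 19, between 74.5 and 650 kb away, with a median Pol II fold of 3.18, and 7 had induced Pol II. KLF4, a regulator of epithelial differentiation, had 17 with a median of 5.87, and 16 had induced Pol II. NR2F2, an orphan nuclear receptor, also had 17, with 3.10, and 9 had induced Pol II. SOX9, a factor of crypt cells, stood further down, at rank 23, and was named by no set rule. It had 11 members with a median of 4.95, and 10 had induced Pol II. In all, 4856 genes were nearest to a member, 2855 of them to 1 member only and 39 to 10 or more.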

How the data were processed

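H3K27ac and Pol II ChIP-seq was done on uninduced and induced DLD1 cells. Per the submitters' processing notes, BWA 0.7.17-r1188, SAMtools 1.10 and MACS2 2.1.1.20160309 were used; roles, settings and any pooling of replicates were not stated, and the labels tie 1 list to both samples of a group. The notes name builds hg19 and hg38, and positions on chromosome 17 up to 83228308 fit only the latter. Each deposited line gives a summit's −log10 q value, its fold (a ratio to the local background) and a score, which the authors' file holds as 10 times the −log10 q; the score was not used.

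Summits of 1 region were collapsed, with the highest fold and q kept (Python 3.11.15, pandas 2.3.3), and members counted with bedtools 2.31.1 agreed, with a difference of 0. An overlap was at least 1 bp. Genes were RefSeq GRCh38.p14; 153 protein-coding genes listed at scaffold positions were left out, leaving 19821. The interval code was tested on simulated data. Named members were those highest in Pol II or H3K27ac, highest without induced Pol II, or nearest to listed genes, as well as small RNA genes. Others were picked by no set rule or after seeing values. The text marks many of these picks but not all. Members and lists were chosen with earlier results of these data known. Intervals are Wilson 95% and cover counting error only; depth per region is unknown, and no interval covers replicate spread. Alternatives changed the q limit, list length, overlap, gene margin, width and windows. RNA-seq samples were not analysed here.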

Additional observations from a re-analysis of the deposited data

How the results depend on the processing

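No paired analysis was possible because each condition has 1 peak list for both samples. For the same reason no replicate could be left out. With the 40000 strongest regions of each list there were 6071 members, of which 81.4% had induced Pol II and the median induced coverage was 31.0%. Leaving out all RefSeq genes gave 5586 members, 74.1% and 26.1%. Summits with a −log10 q of at least 5 gave 74.7% and 32.0%, and leaving out 5 kb beside genes 75.4% and 27.02%. Counting a Pol II region within 1 kb gave 78.0%, and members with an uninduced Pol II −log10 q of at least 10 gave 94.6%. With 1 kb windows at Pol II summits the median induced coverage was 48.0%, with no uninduced value measured beside it. The cause of these shifts was not tested. The share with induced Pol II was 76.2% with an overlap of at least 200 bp, 76.7% with a Pol II summit inside and 76.1% without small RNA genes; the last 2 settings were chosen after seeing the data. The number of members was between 5586 and 9389 over all settings. The share of members closer than 10 kb to another left its counting interval in all 7 settings tried for it. Limits: there is 1 list per condition, the rule requires Pol II in the uninduced list only, and reads could be shared between copies of small RNA genes. No genome was used, so motifs at summits were not analysed here.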

Other observations

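The intergenic regions without Pol II lay near the listed genes too. At least 1 lay within 50 kb of 20 of 25 intestinal lineage transcription factors and 20 of 25 colonocyte genes, against 38.6% of all protein-coding genes, while 10 of 20 housekeeping genes and 10 of 28 markers of other tissues had one. Of those regions, 5.16% had an induced Pol II region when 1 to 5 kb from a gene and 1.104% when 500 kb or more away.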
